A study of Mus musculus with 270 samples.

Results

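The hearts of the oldest mice of an aging cohort, killed at 26 months (26 M, n = 5), were compared with those of mice killed at 20 months (20 M, n = 7). These 12 heart libraries were chosen by their organ and age labels out of 270 libraries of the series, which profiled 6 organs of 45 mice. Every mouse was a male of the inbred strain C57BL/6J with the genotype label WT, the labels name no treatment, and powder of the flash-frozen organ gave 1 poly(A) RNA library per mouse. The other heart libraries came from 7 mice of 3 M, 9 of 5 M, 8 of 8 M and 9 of 14 M. They entered the same model, and the 24 libraries of 3, 5 and 8 M served as the young reference. The heart table lists 51810 genes, and the 15842 genes with 10 or more normalized counts in 5 or more of the 45 heart libraries were tested. The comparison asks how the heart's transcripts differ between late and very late life. The mice of the 2 ages are different animals, so it compares mice that lived to each age.

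The heart is built from cardiomyocytes, which contract and burn mostly fatty acids, and from fibroblasts, endothelial cells, pericytes and resident immune cells. With age the rodent heart is known to accumulate extracellular matrix, to express more natriuretic peptides and other genes of the stress programme, and to gain inflammatory transcripts. A piece of heart also holds the blood left in its chambers and vessels, and with it the RNA of reticulocytes, the last RNA-containing stage of red cells, and of platelets, the fragments shed by megakaryocytes.

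Depth ranged from 8180358 to 11278123 recovered reads on genes at 26 M and from 5411149 to 14151822 at 20 M, with medians of 10413977 and 7092680 reads (log2 difference 0.31, two-sided exact permutation p = 0.239 over 792 relabellings). The defining cardiomyocyte markers were high in all 12 libraries, and their sum ranged from 372038 to 895002 normalized counts at 20 M and from 447639 to 843740 at 26 M. Some genes that every heart uses, among them *Actc1*, *Tnnc1*, *Pln* and the 37 genes of the mitochondrial genome, were listed at 0 in all heart libraries, so no value is given for them. The first component of the age-centred values held 33.7% of their variance and split the 45 hearts into a set of 24 libraries (20 M replicates 1 to 3 and 26 M replicates 1 to 3) and a set of 21 (20 M replicates 4 to 7 and 26 M replicates 4 and 5). Column names with an unexplained suffix b belonged to 3 of the 5 libraries of 26 M (replicates 1, 2 and 5) and 2 of the 7 of 20 M (replicates 4 and 5). For 14 heart libraries the same reads also stood under the liver label of the same mouse, but 0 of the 12 late hearts were among them. They were replicates 1 to 5 of 3 M, 6 of 5 M, 4, 6, 7 and 8 of 8 M and 2 to 5 of 14 M. Part of the young reference is thus among them. The heart myosin gene *Myh6* had at least 117112 normalized counts in each of the 24 young libraries. Replicate numbers follow the order of the samples and are names only. Values of 26 M are given below in the order of replicates 1 to 5.

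No gene passed the adjusted threshold between 26 M and 20 M. By limma 0 of 15842 genes (0%) had an adjusted p of at most 0.05, and the smallest adjusted p was 0.9999. Before adjustment 300 genes had p under 0.05, of which 197 were higher at 26 M (1.24%) and 103 lower (0.65%). Together they were 1.89% of the tested genes, below the share of 0.05 that this threshold passes on average when no gene differs. The median difference over all tested genes was -0.0031 on the log2 scale, and the median standard error of a gene was 0.30. DESeq2 on the recovered reads called 12 genes, 11 higher (0.0694%) and 1 lower (0.00631%), and edgeR called 1. Among the higher ones, *Hba-a1*, *Hba-a2*, *Hbb-bs*, *Hbb-bt*, *Slc4a1* and *Trim10* are genes of red cells, *Ppbp* and *Itga2b* are genes of platelets, and *Apol11b* is an apolipoprotein L gene. The plot of the genes with the smallest p shows how far their differences rest on 3 libraries.

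**Figure D1:**
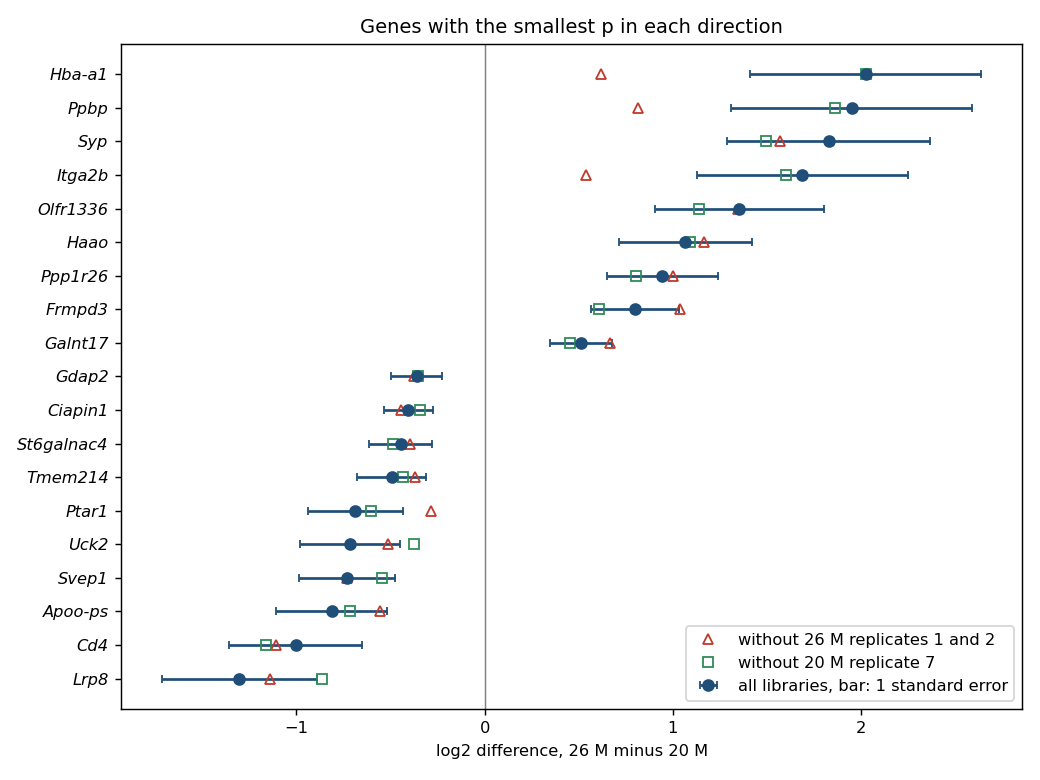
The log2 difference (26 M minus 20 M) of 9 higher and 10 lower genes with the smallest p, with 1 standard error from limma, beside the same value without 26 M replicates 1 and 2 (triangles) and without 20 M replicate 7 (squares). *Hba-a1*, *Ppbp* and *Itga2b* move furthest towards 0 without the first pair of libraries, and among the lower genes *Lrp8* and *Uck2* without 20 M replicate 7.

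Red cell genes had the highest median of the gene lists examined. All 9 tested genes of the erythroid list had a positive difference, 8 of them with an unadjusted p under 0.05 by limma, and the median was 1.66 on the log2 scale. *Hba-a1*, which encodes the alpha chain of adult haemoglobin, ranged from 415 to 1916 normalized counts at 20 M with a median of 946. At 26 M it had 16184, 17402, 648, 1808 and 2639. Replicates 1 and 2 lay far above every library of 20 M, while replicates 3 and 4 lay within their range and replicate 5 just above it. The difference was 2.03 (SE 0.61, unadjusted p = 0.00196 by limma), within the 2 sets of libraries it was 2.62 and 1.17, with the suffix b as a term it was 1.81, and DESeq2 gave 2.85 with an adjusted p of 0.00392. Without 26 M replicates 1 and 2 it was 0.62 (unadjusted p = 0.323 by limma), and the median of the list was 0.061. Replicates 1 and 2 of 26 M have the suffix b, which no 20 M library of the first set has. Between 20 M and 26 M, age and suffix cannot be told apart for this pair within that set. The suffix b libraries of that set at 5, 8 and 14 M had 1430 to 6838 normalized counts of *Hba-a1*. The part of the suffix was not tested further. *Hbb-bs*, the beta chain, ranged from 560.1 to 2693 normalized counts at 20 M with a median of 842, and at 26 M it had 20449, 24024, 912, 1248 and 981. The same pair of libraries was again high and the other libraries were within the range of 20 M. *Hba-a2* and *Hbb-bt* followed their near-identical copies, and how reads were divided between the copies is uncertain. *Alas2*, the first enzyme of haem synthesis in red cells, was listed at 0 in every library.

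Membrane and metabolic genes of the red cell showed the same libraries. *Slc4a1*, the anion exchanger of the red cell membrane, had 544, 258, 10.2, 26.6 and 45.1 normalized counts at 26 M and ranged from 6.59 to 61.2 normalized counts at 20 M with a median of 19.2. *Bpgm*, which makes the 2,3-bisphosphoglycerate that lowers the oxygen affinity of haemoglobin, had 5410, 4433, 388, 1147 and 808 at 26 M and ranged from 425 to 1194 normalized counts at 20 M with a median of 693. In both replicates 1 and 2 were the highest of the 12 libraries, and the rest of 26 M lay within the range of 20 M or, for replicate 3 of *Bpgm*, just below it. In bulk tissue, more cells of a type and more RNA per cell cannot be told apart, and how much blood each piece held was not tested.

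Several red cell genes were lower at 20 M than in young mice. *Hba-a1* ranged from 1286 to 20687 normalized counts in the 24 libraries of 3 to 8 M, with a median of 3959, and 5 of the 7 libraries of 20 M lay below the lowest of them. By limma *Hba-a1* at 20 M fell by 2.02 on the log2 scale against 3 to 8 M (adjusted p = 0.00797), as 5 of the 9 tested genes of the list did past the threshold, beside 0.568% of all tested genes. At 26 M the difference of *Hba-a1* from 3 to 8 M was 0.0091 (adjusted p = 0.9999 by limma). Replicates 1 and 2 stood near the top of the young range, and replicates 3 to 5 below the young median. The 2 contrasts share the young libraries, so these values are given side by side only.

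**Figure D2:**
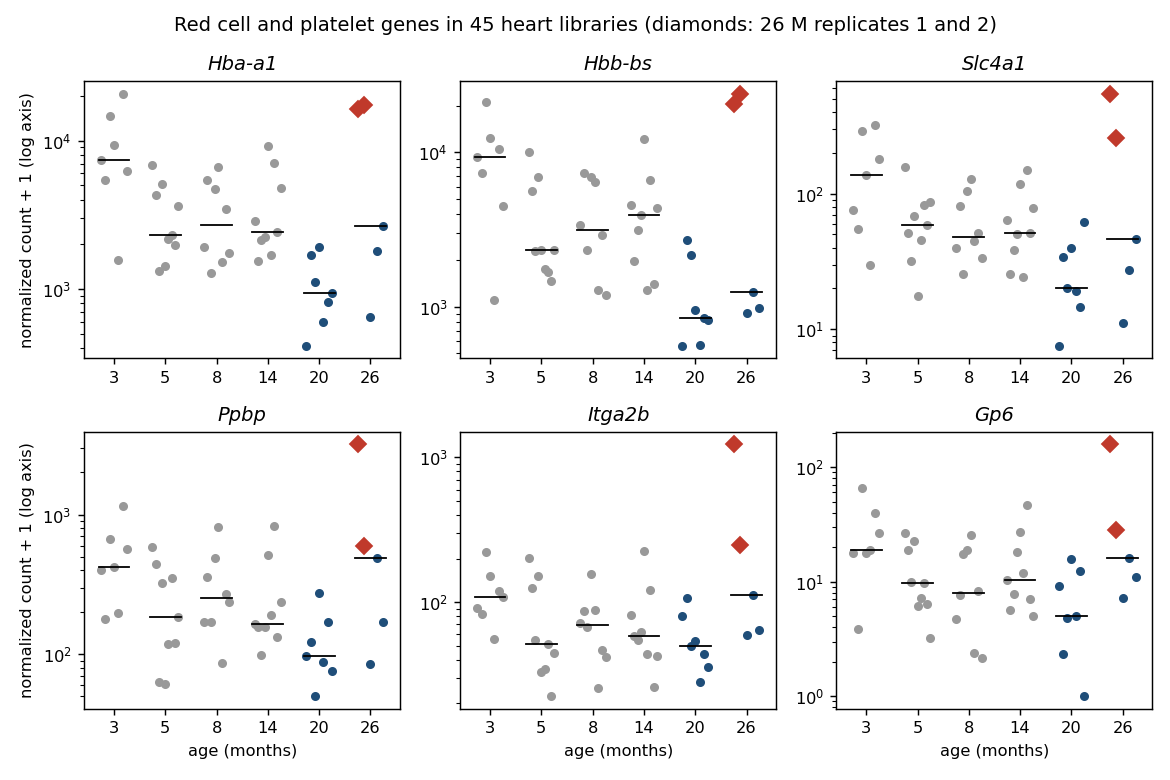
Normalized counts plus 1 (log axis) of 3 red cell genes and 3 platelet genes in each of the 45 heart libraries by age in months, with the median of each age as a bar and 26 M replicates 1 and 2 as diamonds. The diamonds of *Hba-a1* and *Hbb-bs* stand at 16184 to 24024, while the other 26 M libraries stand at 648 to 2639.

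Genes of platelets and megakaryocytes were also high, mostly in 1 library. *Ppbp*, the pro-platelet basic protein stored in alpha granules, had 3181, 592, 83.8, 485 and 169 normalized counts at 26 M and ranged from 49.1 to 274 normalized counts at 20 M with a median of 95.5. *Itga2b*, the integrin chain that binds fibrinogen on platelets, had 1232, 246, 58.0, 111 and 63.0 and ranged from 26.9 to 105 normalized counts at 20 M with a median of 49.1. *Gp6*, the collagen receptor of platelets, had 157, 26.9, 6.27, 15.2 and 10.0 and ranged from 0 to 14.9 normalized counts at 20 M with a median of 4.00. Replicate 1 was the highest library in all 3 genes, replicate 2 was the next, and replicate 4 was above the 20 M libraries as well. The difference of *Itga2b* was 1.69 (SE 0.56, unadjusted p = 0.00427 by limma), 2.62 by DESeq2 (adjusted p = 0.014) and 0.54 without replicates 1 and 2. A platelet list of 14 genes was put together after these values were seen. Of its 13 tested genes 13 had a positive difference and 7 an unadjusted p under 0.05 by limma, with a median of 1.55 and of 0.14 without replicates 1 and 2. Its summed counts were 8816 in replicate 1 and 1934 in replicate 2, against 443 to 1318 in the other libraries of 26 M and 414 to 977 at 20 M. *Itga2b* in replicates 1 and 2 was above the whole young range, which ended at 221 normalized counts.

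Promoters of red cell and platelet genes were searched because both kinds are known targets of the transcription factor GATA1, whose sites hold the letters GATA. Of those searched, the 3 with a match to the pattern below are shown. The sequences are from RefSeq (GRCm38.p6), the 250 bases before the RefSeq gene start, in the direction of transcription. Capitals mark NGATAA on either strand, which 22.5% of the 32851 promoters of the same length hold. They are *Hba-a1* (chr11:32283422-32283671, + strand), *Hbb-bs* (chr7:103827929-103828178, - strand) and *Gp6* (chr7:4397745-4397994, - strand).
Hba-a1: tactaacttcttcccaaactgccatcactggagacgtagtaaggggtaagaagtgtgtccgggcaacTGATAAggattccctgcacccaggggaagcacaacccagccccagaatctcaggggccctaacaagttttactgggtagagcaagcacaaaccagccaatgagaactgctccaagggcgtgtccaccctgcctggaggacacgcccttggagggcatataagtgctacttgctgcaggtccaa
Hbb-bs: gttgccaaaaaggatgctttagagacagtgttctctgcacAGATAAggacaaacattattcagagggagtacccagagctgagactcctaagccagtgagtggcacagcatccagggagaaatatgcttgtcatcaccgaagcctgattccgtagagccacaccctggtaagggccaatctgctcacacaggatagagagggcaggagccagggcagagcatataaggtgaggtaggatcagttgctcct
Gp6: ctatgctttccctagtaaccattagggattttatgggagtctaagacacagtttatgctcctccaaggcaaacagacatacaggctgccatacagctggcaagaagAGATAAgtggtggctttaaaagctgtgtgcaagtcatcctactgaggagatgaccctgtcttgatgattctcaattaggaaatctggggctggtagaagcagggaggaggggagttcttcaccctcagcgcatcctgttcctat
Each of the 3 holds 1 such match, with its first base at position -183, -210 and -144 from the gene start respectively, and the windows of *Ppbp*, *Itga2b* and *Pf4*, which encodes another platelet chemokine, hold none. A match describes these letters only and does not show that the factor is bound.

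Other genes were high in replicate 1 of 26 M. *Tuft1*, which encodes tuftelin, was the gene called by edgeR and had 5192, 53.9, 35.2, 26.6 and 20.1 normalized counts at 26 M against 11.5 to 45.2 at 20 M, so that 1 library carried the call. *Apol11b* had 1297, 861, 19.6, 87.2 and 145 and ranged from 13.2 to 102 normalized counts at 20 M with a median of 66.4, with the same 2 libraries high as for haemoglobin. *Rsad2*, the antiviral enzyme viperin, had 5314, 1953, 503, 633 and 802 and ranged from 442 to 944 normalized counts at 20 M with a median of 606. For *Rsad2* the difference of 0.88 (SE 0.38, unadjusted p = 0.0246 by limma) was -0.061 without replicates 1 and 2.

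Some of the 10 higher genes with the smallest p did not follow these libraries. *Frmpd3*, a gene of a FERM and PDZ domain protein, ranged from 14.4 to 63.4 normalized counts at 20 M with a median of 30.8 and had 32.1, 62.6, 56.4, 84.4 and 68.0 at 26 M, a difference of 0.80 (SE 0.23, unadjusted p = 0.00142 by limma). Without replicates 1 and 2 it was 1.04 and with the sets of libraries as a term 0.83. *Galnt17*, a glycosyltransferase that starts O-linked sugar chains, ranged from 69.5 to 122 normalized counts at 20 M with a median of 83.8 and had 101, 117, 116, 148 and 167, a difference of 0.51 (SE 0.17, unadjusted p = 0.00336 by limma). The ages overlapped in both genes, and in both 5 of the 5 libraries of 26 M were above the median of 20 M. *Syp*, the synaptic vesicle protein synaptophysin, was low throughout, with 16.4, 19.0, 15.7, 11.4 and 7.16 at 26 M and 0 to 10.4 at 20 M. *Ppp1r26*, *Olfr1336* and *Haao* had differences of 0.94, 1.35 and 1.07 at levels of at most 39.8 normalized counts. For *Frmpd3* and *Ppp1r26* the level at 20 M had fallen against 3 to 8 M, by 1.34 and 1.14 on the log2 scale (adjusted p = 6.89e-06 and 0.0018 by limma), and 26 M lay between. Both genes were chosen by their difference between 26 M and 20 M. The 20 M libraries are shared by the 2 contrasts, so nothing further is read from this fall.

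Among the genes lower at 26 M, *Lrp8* had the smallest p and was the gene called lower by DESeq2. *Lrp8* (GRCm38 chr4:107802261-107876840, + strand), a protein-coding gene for the receptor of reelin and of apolipoprotein E, ranged from 23.9 to 304 normalized counts at 20 M with a median of 34.9, and had 14.0, 17.4, 16.4, 26.6 and 21.5 at 26 M. Replicate 7 of 20 M was far above the others, and 4 of the 5 libraries of 26 M were below the lowest of 20 M. The difference was -1.30 (SE 0.41, unadjusted p = 0.00273 by limma), -1.96 by DESeq2 (adjusted p = 0.0406), and -0.86 without that library (unadjusted p = 0.0144 by limma). *Uck2*, a kinase that salvages uridine and cytidine, ranged from 247 to 1942 normalized counts at 20 M with a median of 442 and had 253, 219, 270.3, 394 and 346 at 26 M. *Svep1*, a large adhesion protein of the matrix, ranged from 120.3 to 514 normalized counts at 20 M with a median of 189 and had 169, 116, 159.8, 143 and 120.3. In both genes replicate 7 of 20 M was the highest library, and their differences of -0.71 and -0.73 were -0.38 and -0.54 without it. Without this library the lower genes at an unadjusted p under 0.05 went from 103 to 37, and the higher ones from 197 to 113.

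For 3 further lower genes leaving out any 1 library kept the sign. *Lrp8*, *Uck2* and *Svep1* also stayed negative without 20 M replicate 7. Without that library *Ciapin1*, *Gdap2* and *Cd4* had -0.34, -0.35 and -1.16, and *Ciapin1* was highest in it. *Ciapin1*, an electron carrier in the assembly of cytosolic iron-sulfur clusters, ranged from 328 to 540.3 normalized counts at 20 M with a median of 432 and had 358, 296, 287, 281 and 352, a difference of -0.41 (SE 0.13, unadjusted p = 0.00311 by limma). *Gdap2* ranged from 102 to 141 normalized counts at 20 M with a median of 131 and had 102, 95.9, 85.4, 105 and 99.5, a difference of -0.36 (SE 0.13, unadjusted p = 0.0101 by limma). *Cd4*, the co-receptor of helper T cells, ranged from 12.0 to 34.6 normalized counts at 20 M with a median of 25.7 and had 16.4, 10.3, 14.1, 5.69 and 15.0, a difference of -1.004 (SE 0.35, unadjusted p = 0.00687 by limma). The ages overlapped in each. *Apoo-ps*, a pseudogene whose reads may be shared with its parent, *Ptar1*, *Tmem214* and *St6galnac4* had differences of -0.81, -0.69, -0.49 and -0.45. *Cd4* was 1 of 8 tested T cell genes, of which 7 had a positive difference (median 0.44, and 0.21 without 20 M replicate 7), so it went against its list.

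The extracellular matrix had the lowest median of the gene lists. Of 36 tested genes 31 were lower at 26 M, 5 of them with an unadjusted p under 0.05 by limma, and the median was -0.34. *Lox*, the enzyme that cross-links collagen and elastin, ranged from 49.8 to 742 normalized counts at 20 M with a median of 89.0 and had 104, 57.1, 65.8, 75.9 and 49.4 at 26 M. *Col1a1*, the main chain of fibrillar collagen, ranged from 630.4 to 2591 normalized counts at 20 M with a median of 1061 and had 821, 810, 888, 737 and 748. *Col8a1*, a short-chain collagen, ranged from 427 to 2843 normalized counts at 20 M with a median of 679 and had 411, 635.6, 408, 652 and 404. The 5 hearts of 26 M lay close together and within the range of 20 M (in *Lox* and *Col8a1* with the lowest values below it), whereas 20 M was wide, with replicates 2, 3 and 7 at the top for *Col1a1*. *Col5a1* and *Loxl1* had differences of -0.40 and -0.43, and those of *Lox* and *Col1a1* were -0.99 (SE 0.37, unadjusted p = 0.0106 by limma) and -0.57 (SE 0.25, unadjusted p = 0.0298 by limma). *Col3a1*, the collagen that accompanies *Col1a1*, and *Postn*, the periostin of activated fibroblasts, differed by -0.43 (SE 0.24, unadjusted p = 0.0749 by limma) and -0.39 (SE 0.41, unadjusted p = 0.34 by limma). With the sets of libraries as a term they differed by -0.49 (unadjusted p = 0.0262 by limma) and -0.57 (unadjusted p = 0.0321 by limma). With that term 14 genes of the list were lower at an unadjusted p under 0.05 by limma, beside 251 of all 15842 tested genes. In either direction 571 tested genes were past it, and 0 passed after adjustment. The sets were drawn from these same values, so p-values with this term may be too small. Without 20 M replicate 7 the median of the list was -0.22, and *Lox* had -0.58 (unadjusted p = 0.0595 by limma). The fibroblast markers, which share collagens with this list, had a median of -0.31 (-0.53 without 26 M replicates 1 and 2) with 7 of 9 lower, and their summed level was 18112 to 37536 at 20 M and 19388 to 25561 at 26 M. The part of the fibroblast number in these values was not tested.

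The cardiac stress programme, genes that hypertrophied or loaded hearts switch on again from fetal life, was lower in 13 of 16 tested genes, with a median of -0.31 and of -0.13 without 20 M replicate 7. *Nppb* (GRCm38 chr4:147985788-147987205, + strand), which encodes the brain natriuretic peptide of stretched ventricles, ranged from 1311 to 6849 normalized counts at 20 M with a median of 1690. At 26 M it had 1366 in replicate 1 and nearly the same in replicate 3, 2101 in replicate 2, 919 in replicate 4 and 1149 in replicate 5. Replicate 7 of 20 M was again far above the rest, and replicates 4 and 5 of 26 M lay below the whole range of 20 M. The difference was -0.67 (SE 0.27, unadjusted p = 0.0182 by limma), -0.39 without that library, and -0.058 and -1.32 within the 2 sets of libraries. *Acta1*, the skeletal alpha-actin of fetal myocardium, ranged from 728 to 34795 normalized counts at 20 M with a median of 9859 and had 1328, 1433, 1067, 5888 and 3730. It was lower in the first set of libraries than in the second at both ages, and with the sets as a term its difference of -1.24 became -0.83 (unadjusted p = 0.0184 by limma). Within the sets it was 0.055 in the first and -1.65 in the second, and without 20 M replicate 7 it was -0.78. *Nppa*, the atrial natriuretic peptide, *Ankrd1*, a stretch sensor of the sarcomere, and *Gdf15*, a stress hormone, had intervals of -1.40 to 1.00, -1.30 to 1.11 and -1.70 to 0.51 (95%, limma). Each of these intervals spans more than 2 log2 units. The interval of *Myh7*, the slow myosin heavy chain, was narrower, -0.30 to 0.56, and that of *Myh6*, the fast chain of the adult mouse ventricle, was -0.52 to 0.96.

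**Figure D3:**
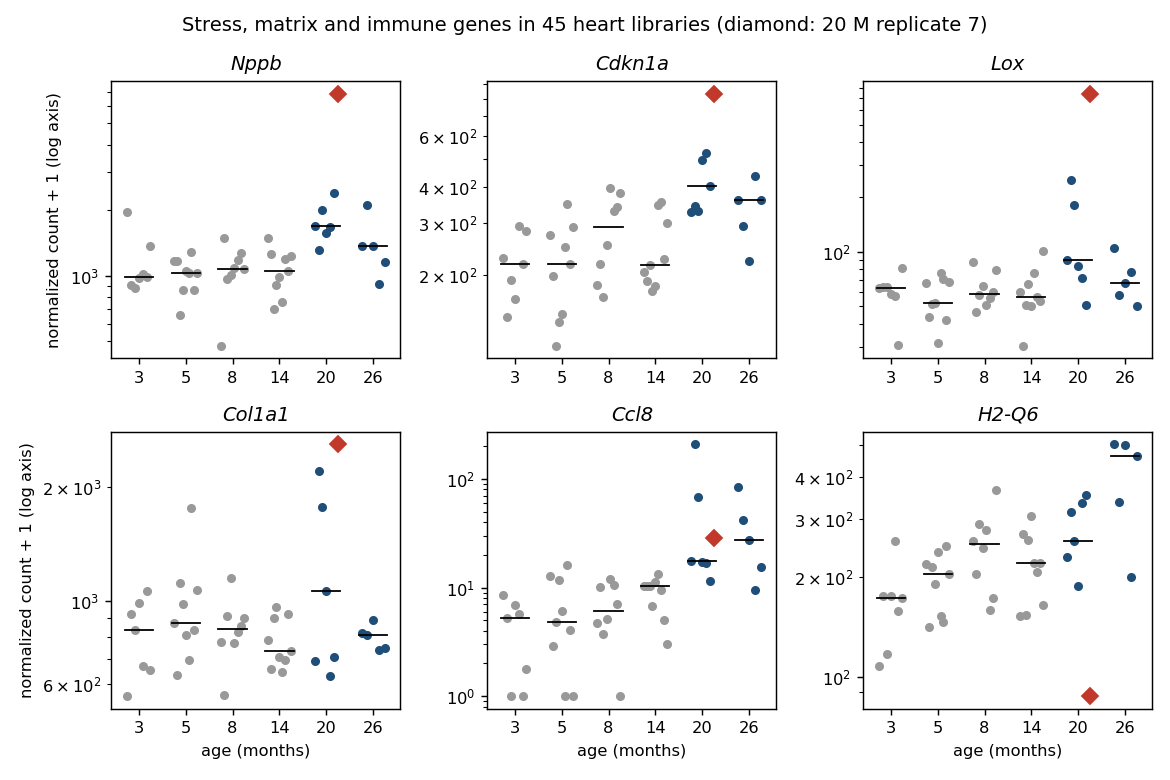
Normalized counts plus 1 (log axis) of *Nppb*, *Cdkn1a*, *Lox*, *Col1a1*, *Ccl8* and *H2-Q6* in the 45 heart libraries by age in months, with the median of each age as a bar and 20 M replicate 7 as a diamond. The diamond is the highest of the 45 libraries in *Nppb*, *Cdkn1a*, *Lox* and *Col1a1*, at 6849, 834, 742 and 2591 normalized counts, and the lowest in *H2-Q6*, at 86.5.

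Genes of antigen presentation leaned the other way. Of 18 tested genes 17 were higher at 26 M, 3 of them with an unadjusted p under 0.05 by limma, and the median was 0.46. *H2-Q6* (GRCm38 chr17:35424850-35430055, + strand), a class Ib molecule of the major histocompatibility complex, ranged from 86.5 to 352 normalized counts at 20 M with a median of 255 and had 502, 337, 499.8, 199 and 462 at 26 M. Replicates 1, 3 and 5 of 26 M were above the whole range of 20 M, and replicate 4 was below its median. The difference was 0.71 (SE 0.26, unadjusted p = 0.00974 by limma), 0.63 without 26 M replicates 1 and 2 and 0.48 without 20 M replicate 7. Its neighbours *H2-Q4* and *H2-Q7*, with differences of 0.66 and 0.54, are close relatives and may share reads with it. For the list the median was 0.23 without the first pair and 0.25 without 20 M replicate 7. Among interferon response genes 22 of 30 were higher (median 0.17, 2 with an unadjusted p under 0.05 by limma), and besides *Rsad2* the GTPase gene *Irgm2*, with 413, 287, 589, 262 and 286 at 26 M and 182 to 337 at 20 M, was among them. Without 26 M replicates 1 and 2 the interferon median was 0.025.

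Inflammatory genes were lower more often than higher. Of 30 tested chemokine, cytokine and acute inflammation genes 20 were lower at 26 M, with a median of -0.12 and of -0.23 without 26 M replicates 1 and 2. *Ccl8*, a chemokine of monocytes, ranged from 10.4 to 207 normalized counts at 20 M with a median of 16.5 and had 83.9, 41.2, 26.6, 8.54 and 14.3. *Cxcl13*, the chemokine that draws B cells, ranged from 154 to 2622 normalized counts at 20 M with a median of 319 and had 96.2, 246, 172, 181 and 418. *Serpina3n*, an acute phase protease inhibitor, ranged from 79.0 to 1009 normalized counts at 20 M with a median of 262 and had 387, 256, 232, 67.3 and 179. The ages overlapped in all 3, single hearts of 20 M had the highest values, and the intervals of the difference, -1.60 to 1.27, -2.35 to 0.24 and -1.57 to 0.54 (95%, limma), held 0. *Cxcl2*, a chemokine of neutrophils, had the smallest p of the list, with 6.58, 0.793, 5.48, 6.64 and 7.16 at 26 M and 3.85 to 43.9 at 20 M, a difference of -1.37 (SE 0.68, unadjusted p = 0.0487 by limma).

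Of 25 tested genes of cell cycle arrest and senescence 19 were lower and 6 higher, with a median of -0.11 and 0 at an unadjusted p under 0.05 by limma. *Cdkn1a*, which encodes the cell cycle inhibitor p21, ranged from 328 to 834 normalized counts at 20 M with a median of 402 and had 359, 292, 222, 434 and 360.2, a difference of -0.44 (SE 0.26, unadjusted p = 0.103 by limma). *Cdkn2a*, which encodes p16 and p19Arf, was scarce, with 3.88 to 15.9 at 20 M and 11.5, 19.0, 8.62, 13.3 and 10.0 at 26 M, a difference of 0.72 (SE 0.60, unadjusted p = 0.233 by limma). *Cdkn1a* leaned down and *Cdkn2a* up, and both intervals held 0 (-0.96 to 0.092 and -0.48 to 1.92). Proliferation genes had a median of -0.035 over 24 tested (0.02 without 20 M replicate 7), and *Aurka*, a mitotic kinase, had the smallest p with a difference of -0.56 (SE 0.36, unadjusted p = 0.125 by limma).

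Genes of fuel use were mostly higher by small amounts. Of 27 tested genes of fatty acid oxidation and PPAR targets 23 were higher at 26 M, with a median of 0.19, and 2 had an unadjusted p under 0.05 by limma. Without 20 M replicate 7 the median of the list was 0.084. The genes at p under 0.05 were *Ucp2*, a mitochondrial carrier, and *Acot1*, which splits long-chain acyl-CoA. *Acot1* had 60.0, 76.9, 92.5, 36.0 and 91.0 at 26 M and ranged from 10.8 to 98.8 normalized counts at 20 M with a median of 42.6, a difference of 0.78 (SE 0.35, unadjusted p = 0.032 by limma), which without 20 M replicate 7 was 0.49 (unadjusted p = 0.139 by limma) and within the 2 sets 0.073 and 1.20. *Ucp2* had 1515, 1361, 657, 732 and 839, with replicates 1 and 2 above the 20 M range of 489 to 1033, and its difference of 0.47 was 0.091 without them. *Pdk4*, the kinase that shuts pyruvate out of oxidation, and *Ucp3*, a carrier of muscle mitochondria, had differences of 0.16 (SE 0.31, unadjusted p = 0.613 by limma) and 0.88 (SE 0.63, unadjusted p = 0.17 by limma). Of 41 tested nuclear genes of oxidative phosphorylation 36 were higher, and 0 genes had an unadjusted p under 0.05 by limma. The median of 0.15 was -0.10 without 26 M replicates 1 and 2, and 0.055 with the sets of libraries as a term. *Atp5d*, a subunit of ATP synthase, had the smallest p there (0.137, a difference of 0.31). Glycolysis and glucose use had a median of 0.033 over 23 genes (-0.10 without 26 M replicates 1 and 2), with the phosphoglycerate mutase gene *Pgam1* at -0.60 (SE 0.28, unadjusted p = 0.0406 by limma). The 13 subunits encoded in mitochondria were listed at 0 throughout.

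Contractile genes of the sarcomere (17 tested, median 0.13) and genes of calcium handling and excitation (19 tested, median 0.11) held 0 genes at an unadjusted p under 0.05 by limma. The contractile median was -0.10 without 26 M replicates 1 and 2 and -0.026 with the sets as a term, and the calcium median was 0.035 without 20 M replicate 7. *Casq2*, the calcium store of the sarcoplasmic reticulum, was the lowest in p of the latter and ranged from 12877 to 31977 normalized counts at 20 M with a median of 18368, with 14166, 13077, 14386, 20538 and 16919 at 26 M. Clock genes had a median of -0.15 over 20 genes, and of 0.059 without 26 M replicates 1 and 2. *Arntl*, *Dbp*, *Per2* and *Nr1d1*, 4 parts of the clock and its output, differed by 0.092, -0.22, -0.088 and 0.24, and the kinase gene *Csnk1d* had the smallest p at 0.152 by limma. The values of *Dbp* ran from 34.1 to 198 at 26 M and from 39.4 to 137 at 20 M. The hour of killing is not given in the sources used here.

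Fast response genes were lower more often than higher. Of 25 immediate early genes, which cells switch on within minutes of a stimulus, 19 were lower with a median of -0.24, and *Ier3* and *Btg2* had an unadjusted p under 0.05 by limma (0.0258 and 0.0367). *Btg2*, a target of p53, ranged from 492 to 1620 normalized counts at 20 M with a median of 576 and had 389.8, 498, 412, 602 and 546 at 26 M. Replicate 7 of 20 M was once more the highest, and without it the median of the list was -0.13. *Fos* ranged from 123 to 537 normalized counts at 20 M with a median of 226 and had 214, 312, 137, 310.1 and 163, a difference of -0.069 (SE 0.36, unadjusted p = 0.851 by limma). Heat shock and protein folding genes had a median of 0.028 over 34 tested (-0.083 without 26 M replicates 1 and 2). In that list the co-chaperone gene *Dnajb4*, with 4293 in 20 M replicate 7 and 1570 to 1746 at 26 M, was lower, and the small heat shock gene *Hspb2* was higher at no more than 15.6 normalized counts. Genes of oxidative stress defence had a median of -0.018 over 27 (-0.17 without the same pair), with the haem oxygenase gene *Hmox1* at -0.73 (SE 0.44, unadjusted p = 0.104 by limma).

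Markers of cells other than cardiomyocytes were listed for each library, since the blood genes moved with single libraries. Fast skeletal muscle fibre genes had a median of 1.57, with 8 of 8 higher and 3 at an unadjusted p under 0.05 by limma, at low levels. *Atp2a1*, the calcium pump of fast fibres, had 23.0, 30.9, 8.62, 11.4 and 107 at 26 M and ranged from 0 to 15.4 normalized counts at 20 M with a median of 6.65. *Myh4*, the fast IIb myosin, had 279.6, 265, 2.35, 73.0 and 1254 at 26 M, and at 20 M it was 0 in 4 libraries, 4.94 in 1 and 198 and 296 in replicates 4 and 5. The summed list was 3914 in 26 M replicate 5, 86.2 to 825 in its other libraries and 54.0 to 742 at 20 M. Transcripts of fast skeletal muscle were thus present in hearts of both ages. The libraries with the suffix b had the highest sums of this list. These were 578.5 and 741.8 in 20 M replicates 4 and 5. In 26 M replicates 1, 2 and 5 they were 824.9, 821.1 and 3914. A larger share of the 26 M libraries has this suffix, so age and suffix are partly mixed in this list. With the suffix as a term the difference of *Atp2a1* was 1.40, against 2.05 without it. The B and plasma cell genes were highest in 20 M replicates 1 to 3, at 1235 to 3183 summed counts, and at 205 to 851 at 26 M, and their median difference was 0.011, against -0.48 without 26 M replicates 1 and 2.

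Of the other marker lists, atrial cardiomyocytes had a median difference of 0.038, and *Bmp10*, a growth factor of the atrium, ran from 8.62 to 1297 at 26 M and from 244 to 1672 at 20 M, a wide span at both ages. The medians were 0.19 for cardiomyocytes, 0.081 for endothelium, 0.053 for pericytes and smooth muscle, -0.043 for macrophages, 0.26 for neutrophils, -0.0028 for Schwann cells and neurons and 0.31 for mesothelium. Adipocyte genes had -0.30, with the brown fat gene *Ucp1* between 0 and 286 at 20 M. Lung epithelium and hepatocyte genes had 0.40 and 0.32. Without 26 M replicates 1 and 2 most of these positive medians turned, to -0.10 for cardiomyocytes, -0.036 for atrial cardiomyocytes, -0.12 for endothelium, -0.27 for pericytes and smooth muscle, -0.10 for mesothelium, -0.23 for lung epithelium and -0.22 for hepatocytes, while that of neutrophils was 0.09. The negative medians became -0.27 for macrophages, -0.71 for adipocytes and -0.089 for Schwann cells and neurons. Both left-out libraries are of the first set, so their removal also changes the balance of the sets. With all libraries and the sets as a term the medians were 0.060 for cardiomyocytes, 0.20 for mesothelium, 0.094 for lung epithelium and 0.26 for hepatocytes. Those of atrial cardiomyocytes, endothelium, and pericytes and smooth muscle were -0.040, -0.0094 and -0.061. Single genes of these lists, each with the lowest p of its list, were *Muc16* of the mesothelium at 0.32, *Cxcr2*, a chemokine receptor of neutrophils, at 1.26, *Tie1* of the endothelium at 0.34, *C1qc*, a complement chain made by macrophages, at -0.19, *Mylk*, the myosin light chain kinase of smooth muscle, at 0.18, *Myl2*, the ventricular myosin light chain, at 0.26, *Uchl1* of neurons at -0.43, *Mzb1* of plasma cells at -0.62, the surfactant gene *Sftpb* at 0.61 and the fibrinogen gene *Fga* at 1.10. The signs of *Mylk* and *Myl2* turned without 26 M replicates 1 and 2. In none of these lists did more than 1 gene have an unadjusted p under 0.05 by limma. The part of any of these cells in the differences of other genes was not tested.

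**Figure D4:**
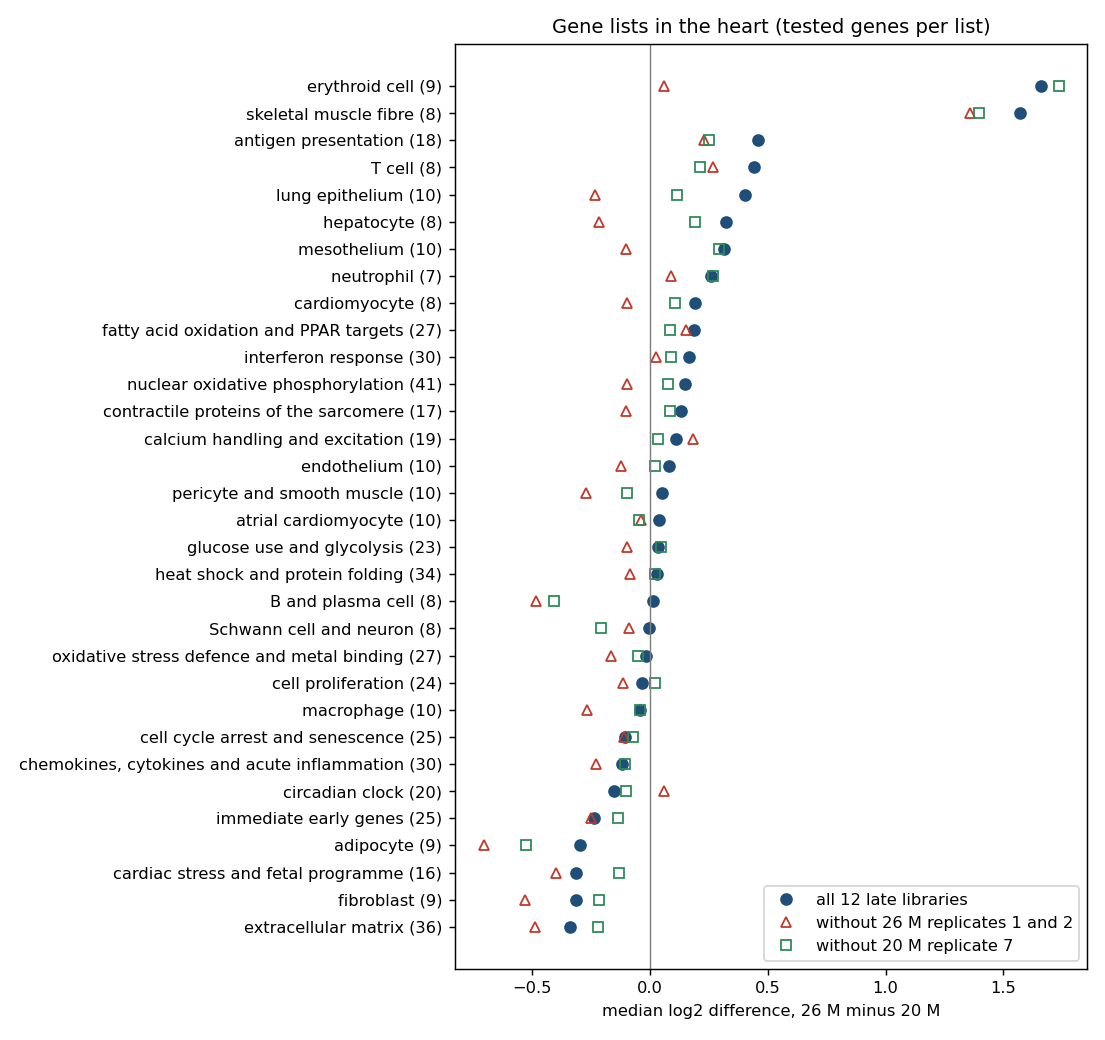
Median log2 difference (26 M minus 20 M) of the tested genes of each list, with all late libraries (circles), without 26 M replicates 1 and 2 (triangles) and without 20 M replicate 7 (squares), where the number in brackets is the number of tested genes. The erythroid list goes from 1.66 to 0.061 without 26 M replicates 1 and 2, while the matrix list stays below 0 in all 3 versions.

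Only few genes separated the ages completely. In 12 genes (0.0757%) every heart of 26 M was above every heart of 20 M, and in 4 genes (0.0252%) every one was below. The late libraries have 792 relabellings, all equally likely for a gene unrelated to age. Only the labelling with the highest values at 26 M separates the ages upwards, and likewise downwards. Chance alone thus gives complete separation in a larger share of genes, in each direction, than was found. The genes below are given as a description only, and their separation is not evidence of a difference between the ages. *Atp2b3*, a calcium pump of the plasma membrane, had 14.0, 13.5, 13.3, 15.2 and 15.0 at 26 M and ranged from 0 to 13.2 normalized counts at 20 M with a median of 6.23. *Prps2*, which makes the ribose phosphate for nucleotides, had 329, 248, 239.7, 248 and 267 and ranged from 166 to 237 normalized counts at 20 M with a median of 220. *Lman2l*, a lectin of the secretory pathway, had 153, 155, 159.8, 152 and 153 and ranged from 111 to 143 normalized counts at 20 M with a median of 126. In *Atp2b3* the lowest heart of 26 M lay just above the highest of 20 M, and in *Lman2l* the gap was wider. Other higher genes included *Olfr1336*, *Fam129c*, *Oip5*, *Hs3st4*, *9230104L09Rik*, *A530030E21Rik*, *Gm20186* and *Gm35188*, and the lower ones were *Zfp131*, *Ptprq*, *Plk3* and *Tifa*. *Zfp131*, a zinc finger gene, had 322, 318, 316, 322 and 291 at 26 M and ranged from 335 to 466 normalized counts at 20 M with a median of 359.5, a difference of -0.24 (SE 0.094, unadjusted p = 0.0134 by limma). *Plk3*, a kinase of the stress response, had 23.9, 15.1, 22.7, 24.7 and 20.1 and ranged from 24.7 to 57.6 normalized counts at 20 M with a median of 35.0. Predicted gene models made up 34 of the 197 higher and 13 of the 103 lower genes at an unadjusted p under 0.05.

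Each late age was also set against 3 to 8 M, with the same young libraries in both contrasts. Some of these young libraries also stood under the liver label, as given above. At 26 M 25 genes rose (0.158%) and 0 fell (0%) by limma, with 733 at an unadjusted p under 0.05, 71 called by edgeR and 78 by DESeq2. At 20 M 173 genes rose (1.09%) and 90 fell (0.568%). Of the 25 genes of 26 M, 19 (76.0%) were among the 263 of 20 M (7.22% of these), and both contrasts use the same young libraries. Of the 25 genes 10 were predicted models, and the named ones included genes of immune cells and of the interferon response. *Ubd*, a ubiquitin-like protein induced by interferon, rose by 3.31 at 26 M (adjusted p = 0.00248 by limma), and its difference at 20 M was 1.78 (adjusted p = 0.0383). *Ccl8* rose by 2.66 at 26 M (adjusted p = 0.0424 by limma) and 2.82 at 20 M (adjusted p = 0.00133). *Ccr2*, the receptor of recruited monocytes, rose by 1.24 and 1.15, and *Ifit3*, an interferon-induced antiviral gene, by 0.88 and 0.78 (adjusted p = 0.0291 and 0.00328 by limma). *H2-Q6* rose by 0.97 at 26 M (adjusted p = 0.0488 by limma), and at 20 M its difference was 0.26 (adjusted p = 0.735). The test of 26 M against 20 M itself, given above, did not pass for it. The count at 26 M was 0 without replicate 2 and 4 without replicate 1, and also 3 without replicate 3 and 10 without replicate 5.

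For genes called at 20 M the values of both late ages are set side by side. *Nppb*, *Lox*, *Cdkn1a* and *Serpina3n* rose at 20 M against 3 to 8 M by 1.02, 1.25, 0.95 and 1.99 (adjusted p = 0.00261, 0.00586, 0.00309 and 0.00209 by limma), and at 26 M their differences of 0.35, 0.27, 0.52 and 1.47 did not pass. Over the 173 genes that rose at 20 M the median was 0.92 at 20 M and 0.57 at 26 M, and over the 90 that fell it was -0.79 and -0.33. These genes were chosen by their values at 20 M, so nothing is read from a smaller value at 26 M. *Pdk4* fell at 20 M by 0.93 (adjusted p = 0.0182 by limma), with -0.77 at 26 M. The antigen presentation list had a median of 0.55 at 26 M and 0.11 at 20 M, and the matrix list 0.14 and 0.39. The count of 20 M was 114 without its replicate 7.

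A difference in the spread between mice was not detectable. The mean distance between hearts (1 minus Pearson's r over the tested genes on the log2 scale) was 0.0630 within 26 M and 0.0658 within 20 M, a difference of -0.0028 (two-sided exact permutation p = 0.716 over 792 relabellings). Over the 500 most variable genes the distances were 0.487 and 0.464 (exact permutation p = 0.652).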

How the data were processed

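Poly(A) RNA of flash-frozen hearts was sequenced as single reads without molecular identifiers. The authors trimmed the reads, aligned them to GRCm38 with HISAT2 (version 2.1.0 in the submitters' processing notes), counted reads per gene and divided the counts by DESeq2 size factors. The deposited signal values are these normalized counts, a unit of coverage per gene that is comparable within the heart table. Each value was a whole multiple of 1 read within 0.001 reads (100% of values), so the reads were recovered for the count tests.

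Genes reaching 10 normalized counts in 5 or more of the 45 heart libraries were kept, and log2(normalized count + 1) was fitted with limma (3.58.1, R 4.3.3) over the 6 ages in 1 model, with trended prior and Benjamini-Hochberg adjustment at 0.05. Fold differences are on this scale, which understates those of low genes. The fitting script was tested on simulated data with the same spread setting for every gene and no sets of libraries. This checks the script only, not how the test behaves on these hearts. edgeR (4.0.16) and DESeq2 (1.42.0) on the recovered reads, a pseudocount of 0.1, no filter, quantile scaling, the suffix b, the 2 sets of libraries, depth, the 12 late libraries alone and leaving out each library were the alternatives. The sets were split at the largest gap on the first principal component among the middle of the libraries. That component comes from the same values that were tested, so p-values and counts with the sets as a term may be too favourable. Depth ran from 5411149 to 14151822 reads in the late hearts, and counting error is thus small for all but low genes. The 17 pathway and 16 marker lists, the genes named and the tests were chosen with earlier results of these data known. The genes named were the 10 per direction with the smallest p, predicted models left out, the member of each list with the smallest p, a fixed set of aging genes, and, after their values were seen, genes called by another tool, genes without overlap, further members of the lists and the platelet list. Gene positions are from GENCODE on GRCm38. The liver table served only to look for identical libraries, and the tables of other organs were not used here. Some genes that the rule names are not reported here.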

Additional observations from a re-analysis of the deposited data

Results flagged for a closer look

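Of 138 groups of 5 or 7 libraries (69 named genes at 26 M and 20 M), 6 held a library beyond Dixon's 95% critical value. The scale was log2(normalized count + 1). Chance alone flags about 1 in 20 groups, a share no smaller than 6 of 138. In 20 M replicate 7, *Lrp8* stood at 303.8 normalized counts, *Uck2* at 1942, *Nppb* at 6849 and *Dnajb4* at 4293, each far above the other 6 libraries of that age. *Cxcl2* was low in 26 M replicate 2, at 0.7926 normalized counts, and *Gdf15* in 26 M replicate 3, at 3.134. No explanation was tested.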

How the results depend on the processing

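The count of genes between 26 M and 20 M was 0 by limma in every alternative and leave-out, 1 by edgeR and 12 by DESeq2, and the cause of the difference was not tested. Genes at an unadjusted p under 0.05 ran from 150 (without 20 M replicate 7) to 469 (without 26 M replicate 4) on leaving out 1 library, with 177 without 26 M replicate 1 and 175 without replicate 2. They were 571 with the sets as a term, 926 with no filter, 765 and 199 within the 2 sets, and 177 without 26 M replicates 1 and 2 together, an alternative chosen after seeing the data. Both of these replicates are of the first set, so leaving them out also changes the balance of the sets. For 26 M against 3 to 8 M the count of 25 became 119 with the sets as a term, 71 by edgeR, 78 by DESeq2, 0 without 26 M replicates 1 and 2 together, and 0 to 23 on leaving out 1 library. For 20 M against 3 to 8 M the count of 263 became 1135 with the sets, 435 by DESeq2, and 114 (without 20 M replicate 7) to 308 on leaving out 1 library. The cause was not tested for any of these.

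The difference in spread changed sign over the 500 most variable genes (0.0225) and ran from -0.0091 to 0.00075 on leaving out 1 library, positive without 20 M replicate 4 and without 26 M replicate 1 (0.00052). The sign of genes with small differences also turned. Without 26 M replicates 1 and 2 *Rsad2* had -0.061, *Myl2* -0.094, *Mylk* -0.0071 and *Per2* 0.11. With depth as a covariate *Nppa* had 0.030 and *Ankrd1* 0.050, *Ankrd1* had 0.071 by DESeq2 and 0.057 by edgeR, *Dbp* had 0.0014 by edgeR, and with the sets *Per2* had 0.027 and *Fos* 0.033. On leaving out 1 library *Nppa* ran from -0.57 to 0.056, *Ankrd1* from -0.42 to 0.23, *Ccl8* from -0.58 to 0.30, *Arntl* from -0.0013 to 0.17, *Dbp* from -0.61 to 0.012, *Per2* from -0.24 to 0.029 and *Fos* from -0.21 to 0.14. In all, 2187 alternative values of single genes and list medians kept their sign and side of the threshold or moved within their spread, 30 turned and 5 passed only by DESeq2. A list median that changed sign within its spread is counted among the 2187 and not among the 30.

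No paired analysis was possible because the mice of the 2 ages are different animals and the titles give no replicate numbers. Limits are the 5 hearts of 26 M, the 2 libraries that hold most of the red cell reads, 20 M replicate 7, and the genes listed at 0.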
